A study of Mus musculus with 2 samples.

Results

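The genes that build MHC class I complexes and load them with peptide were followed in fetal thymic stromal cells kept in reaggregation thymus organ culture (RTOC), in which dispersed cells form a three-dimensional tissue on a membrane, and in flat 2D dish culture. The 10 genes were H2-K1, H2-D1, H2-T23, B2m, Tap1, Tap2, Tapbp, Erap1, Canx and Calr. Every non-control probe that carried one of these names, or the RefSeq accession of one of these genes, was taken, with Arts1 read as the older name of Erap1. This gave 20 probes, printed in 38 spots per array, of 41174 probes in all. All samples were C57BL/6 fetal thymus lobes that had been treated with 1.35 mM deoxyguanosine, which depletes lymphoid cells, dispersed with trypsin and cultured for 72 h. One array held cells of E14.5 fetuses after 8 days of fetal thymus organ culture and the other array cells of E15.5 fetuses after 9 days. On both, 2D culture was labelled with Cy3 and RTOC with Cy5. There was no dye swap, so culture and dye cannot be told apart. Both arrays lay on 1 slide and in 1 scan. The number of fetuses behind each RNA is not given in the sources used here, and p-values measure only the spread between these 2 arrays, which may be technical. Stage, days of organ culture and array changed together, and none of them can be separated from the others.

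MHC class I molecules show peptides from inside the cell to CD8 T cells. A heavy chain, here H2-K1, H2-D1 or the non-classical H2-T23, folds in the endoplasmic reticulum (ER) with the help of calnexin (Canx), pairs with the light chain β2-microglobulin (B2m), and is then held by calreticulin (Calr) and tapasin (Tapbp) next to the transporter Tap1/Tap2. The transporter brings in peptides cut by the proteasome, the aminopeptidase Erap1 trims them, and a complex with a fitting peptide leaves for the cell surface. In the thymus, cortical epithelial cells show such peptides to developing thymocytes and thereby take part in the positive selection of CD8 T cells.

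The called probes differed in direction between the parts of this machinery, while their number was near the share over all tested probes. The light chain gene B2m was called higher in RTOC (1.96-fold by its brightest probe). Of the chaperone genes, Calr was called lower (2.05-fold by its brighter probe). Canx was called lower by its dimmest probe alone (2.45-fold), while its brightest probe was 1.56-fold lower and not called. The heavy chains, transporters, tapasin and Erap1 gave no call. Of the 20 probes, 18 were tested, and each of these was well above background in all 4 channels and none was saturated. Of the 18, 2 were called higher in RTOC (both B2m) and 3 lower (Canx with 1 probe and Calr with 2) at an adjusted p under 0.05 in limma, and 13 were not called. Over all 23685 tested probes, 15.3% were called higher and 13.6% lower, so both member counts were near those shares. The ratio was above 0 on both arrays for 11 member probes, below 0 on both for 5, and of opposite sign for 2. Among all tested probes 39.6% were above 0 on both arrays and 40.4% below 0 on both, with a median log2 ratio of -0.01. The count of higher member probes ranged from 0 to 5 over the alternative settings, and that of lower ones from 0 to 3. At an unadjusted p under 0.05 in limma there were 6 member probes above 0 and 4 below. Of all 23685 tested probes, 10242 had such a p in either direction. RNA was taken from whole cultures, in which a smaller number of cells of a type and less RNA per cell give the same reading.

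**Figure D1:**
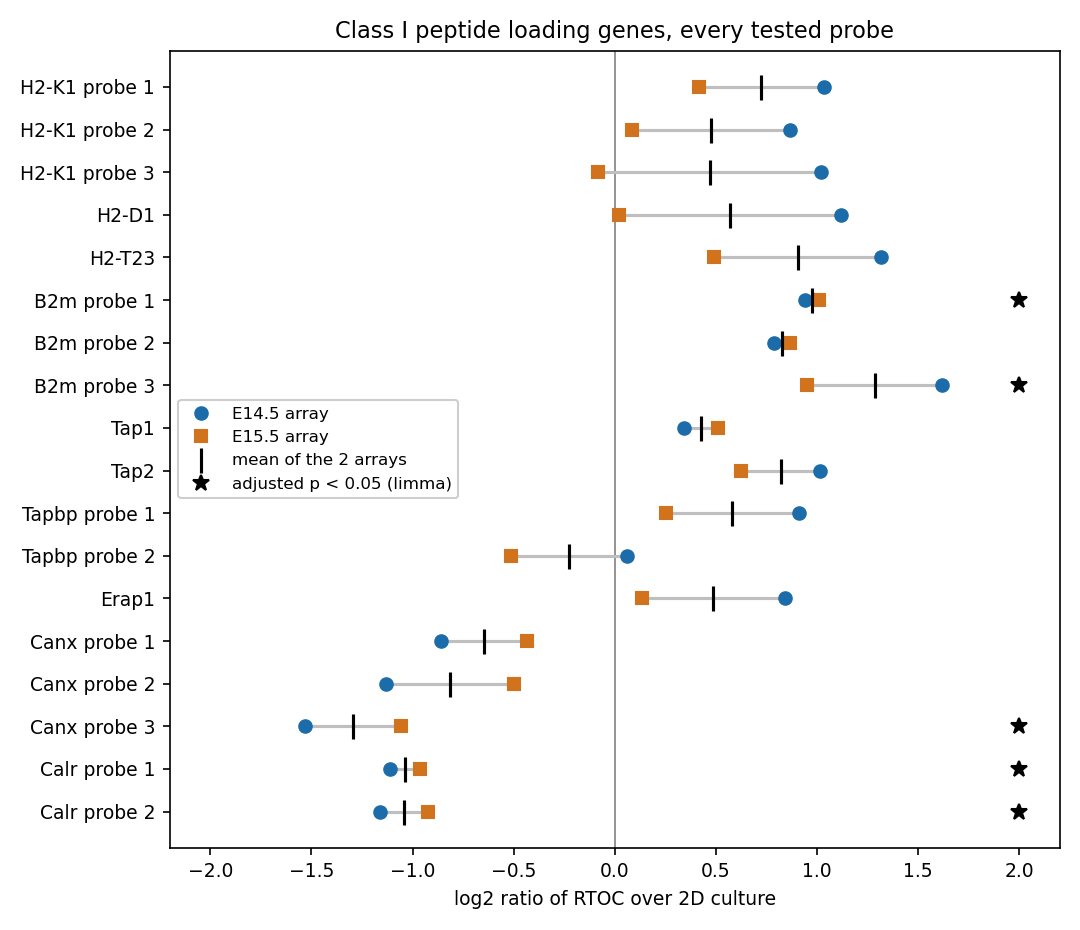
Log2 ratio of RTOC over 2D culture for each of the 18 tested probes, on the E14.5 array (circles) and the E15.5 array (squares), with the mean of the 2 arrays as a bar and a star where the adjusted p from limma was under 0.05. Probes of a gene are numbered from the brightest. The 5 chaperone probes lie below 0 on both arrays, and the 3 B2m probes between 0.79 and 1.62.

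At E14.5 the heavy chains were brighter in RTOC, while at E15.5 they were close to equal or weakly brighter. H2-K1 (chr17:33996012-34000619, coordinates of GRCm38 here and throughout), a classical heavy chain that is expressed on most nucleated cells, had 3 probes. Its brightest probe (A_51_P198434), printed 10 times per array, had a quantile-normalized intensity of 35126 in 2D culture and 71836 in RTOC at E14.5, and of 69268 and 92428 at E15.5. The log2 ratios of 1.03 and 0.42 averaged 0.72 ± 0.44 (SD, n = 2 arrays) and did not pass the test (SE 0.28, adjusted p = 0.109). The 10 spots ranged from 0.918 to 1.13 at E14.5 and from 0.355 to 0.512 at E15.5 in log2 ratio, so the arrays differed by more than the spots within an array, whose SD was 0.064 and 0.061. The second H2-K1 probe (A_52_P474242) read 3918 and 7138 at E14.5 and 8150 and 8642 at E15.5 in 2D culture and RTOC. It was brighter in RTOC at E14.5 and nearly equal at E15.5, with a log2 ratio of 0.87 at E14.5 and 0.08 at E15.5 (adjusted p = 0.277). The third (A_52_P50496) gave 2996 and 6077 at E14.5, against 7663 and 7241 at E15.5, and its log2 ratio changed sign, from 1.02 to -0.08 (adjusted p = 0.342), while with median centring the E15.5 ratio was above 0, at 0.15.

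H2-D1 (chr17:35263094-35267497), another classical heavy chain, followed a similar course. Its tested probe (A_51_P496996) read 11284 in 2D culture and 24480 in RTOC at E14.5, and 30534 and 31021 at E15.5. RTOC was the brighter culture at E14.5, with a log2 ratio of 1.12, while at E15.5 the cultures were nearly equal at 0.02, or -0.05 by the log ratio as deposited (mean 0.57 ± 0.77, SD, n = 2, adjusted p = 0.254). The second probe named H2-D1 (A_52_P246277) is described in the files as a thymus-leukemia antigen transcript, was not well above background in any channel and was not tested. H2-T23 (chr17:36029977-36032701), the gene of the non-classical heavy chain Qa-1, had 1 probe (A_51_P237754). At E14.5 it read 11574 in 2D culture and 28783 in RTOC, and at E15.5 it read 24878 and 35003. Both ratios were above 0, at 1.31 and 0.49, but the mean of 0.90 ± 0.58 (SD, n = 2) missed the threshold (SE 0.30, adjusted p = 0.0769).

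The difference between the arrays came with the 2D channel more than with the RTOC channel. For the 5 tested heavy chain probes, the log2 difference of E15.5 over E14.5 was 0.98 to 1.44 in 2D culture and 0.25 to 0.36 in RTOC. Over all tested probes the quartiles of that difference were -0.39 and 0.39 in 2D culture and -0.31 and 0.29 in RTOC. B2m, the partner of these chains, did not share it, since its 3 probes lay between -0.11 and 0.07 in 2D culture. Tapbp did, with 1.15 and 0.74 in 2D culture and 0.49 and 0.17 in RTOC for its 2 probes, and Tap2 with 0.76 and 0.37. Canx went the other way, with -0.16 to -1.02 in 2D culture over its 3 probes. With 1 array per stage, these differences have no replicate and were not tested.

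**Figure D2:**
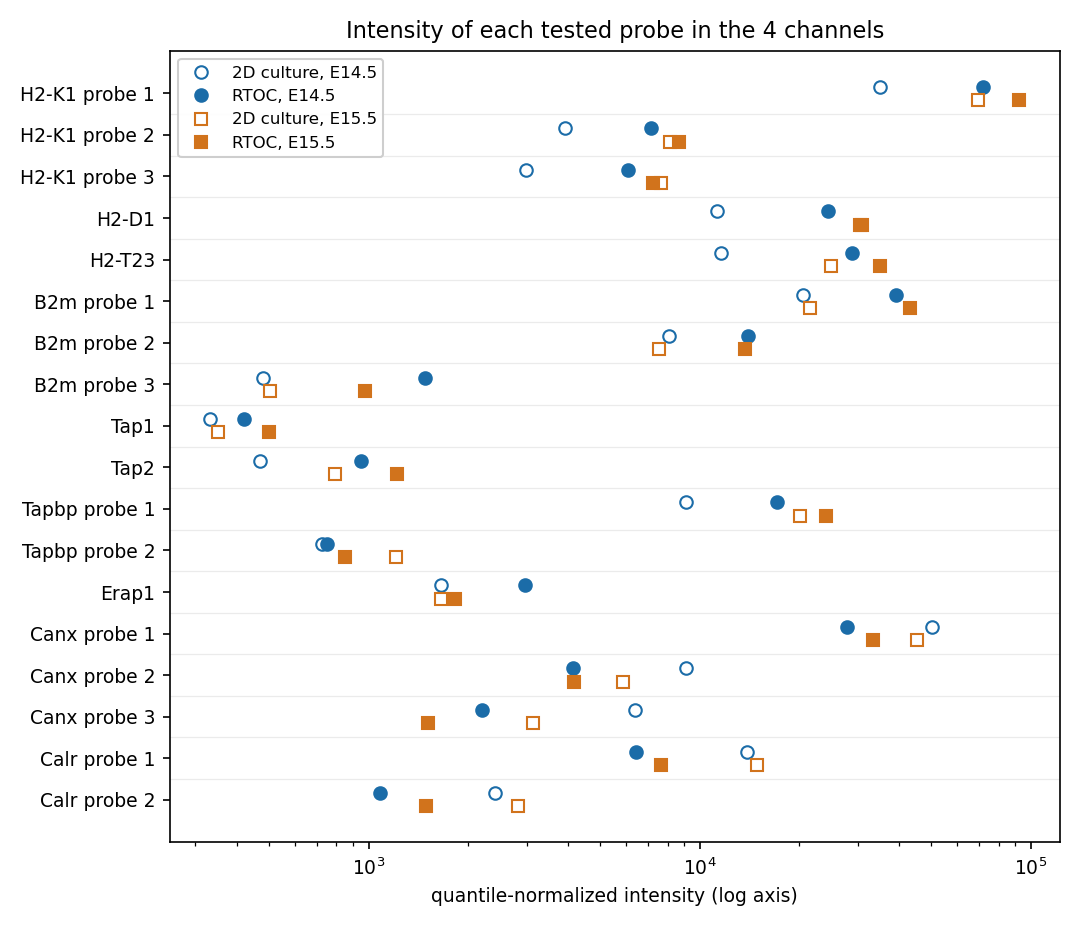
Quantile-normalized intensity of each tested probe on a log axis, in 2D culture (open) and RTOC (filled) on the E14.5 array (circles) and the E15.5 array (squares). Intensities are to be compared within a row only, since probes differ in how brightly they bind. In the heavy chain rows the open circle, 2D culture at E14.5, stands apart from the other 3 symbols, while in the 3 B2m rows both open symbols lie left of both filled ones.

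Heavy chain genes are close relatives, and probes of one can bind transcripts of another. Probe sequences were compared over the array, and the longest stretches that member probes shared with probes of other genes are shown because the ratios of those probes cannot be fully separated. The H2-T23 probe had 28 bases in common with a probe of H2-Q7, whose log2 ratios were 1.22 and 0.33. The brightest H2-K1 probe had 25 in common with a probe named LOC56628 (1.17 and 0.44), the second H2-K1 probe 16 with H2-Bl (0.52 and -0.38), and the last H2-K1 probe 20 with H2-Q10 (0.79 and 0.06). In each pair the E14.5 ratio was the higher one. No such stretch of 15 bases or more was found for the H2-D1 probes. The search compared probes with probes and not with transcripts. It therefore cannot show that the H2-D1 probe, or any other, binds transcripts of 1 gene only. Among the other members only the 2 Calr probes had one, of 15 bases each, with probes of Timm17b and Timm17a.
H2-T23 probe and H2-Q7: TTGGAGCTGTGGTGGCTTTTGTGATGAA
H2-K1 first probe and LOC56628: TGACCTAGGGCTGATTTCTTGTTAA
H2-K1 last probe and H2-Q10: CAAGTGGGAGCAGGCTGGTG
H2-K1 second probe and H2-Bl: CTACTACAACCAGAGC

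B2m (chr2:122147687-122153082), the light chain that every classical heavy chain needs to reach the surface, was called higher in RTOC by 2 of its 3 probes. Its brightest probe (A_51_P129012) read 20494 in 2D culture and 39275 in RTOC at E14.5, and 21529 and 43307 at E15.5. The log2 ratios of 0.94 and 1.01 were close to each other and the mean of 0.97 ± 0.05 (SD, n = 2), a fold of 1.96, was past the threshold (SE 0.25, adjusted p = 0.0381). Both RTOC values lay above both 2D values. The second probe (A_51_P129006), printed 10 times, read 8104 and 14000 at E14.5 and 7520 and 13720 at E15.5. Its log2 ratios of 0.79 and 0.87 had spot SDs of 0.037 and 0.030, and the mean of 0.83 ± 0.06 missed the threshold (adjusted p = 0.0585). The third (A_52_P105594), placed under the B2m name but designed from a cDNA of unclassified product, read 481 and 1478 at E14.5 and 505 and 976 at E15.5. Its mean log2 ratio of 1.28 ± 0.47, a fold of 2.44, was called higher (adjusted p = 0.0262). With normexp and loess the mean was 0.78 and the call was lost (adjusted p = 0.0716), while the second probe gained one (0.72, adjusted p = 0.0397).

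The transporter genes lie close together in the class II region of the MHC, with Psmb8 between them. Tap1 (chr17:34187556-34197225) read 333 in 2D culture and 421 in RTOC at E14.5, and 350 and 500 at E15.5. Its log2 ratios of 0.34 and 0.51 were small on both arrays (mean 0.43 ± 0.12, adjusted p = 0.250). Tap2 (chr17:34204479-34216321), the other subunit, read 469 and 949 at E14.5 and 792 and 1223 at E15.5. RTOC was brighter at both stages, with log2 ratios of 1.02 and 0.63, and the mean of 0.82 ± 0.28 (SE 0.26) was not called (adjusted p = 0.0680). Tapasin, which bridges the transporter and the empty heavy chain, was measured by 2 probes that differed. The brighter Tapbp probe (A_51_P304500; gene at chr17:33919478-33929290) is assigned to transcript variant 1 and read 9090 and 17090 at E14.5, and 20168 and 24023 at E15.5, giving log2 ratios of 0.91 and 0.25 (mean 0.58 ± 0.47, adjusted p = 0.178). The other (A_52_P684830), assigned to variant 2, read 722 and 751 at E14.5, and 1208 and 846 at E15.5. It was level at E14.5 (0.06) and lower in RTOC at E15.5 (-0.51), with a mean of -0.23 ± 0.40 (adjusted p = 0.569). Erap1 (chr13:74639573-74693205), the ER aminopeptidase that cuts peptides to the length of the groove, read 1661 and 2975 at E14.5 and 1660 and 1820 at E15.5. Its 2D values were nearly equal and its RTOC value was higher at E14.5, with log2 ratios of 0.84 and 0.13 (mean 0.49 ± 0.50, adjusted p = 0.255). A second Erap1 probe (A_52_P253015) was not well above background and was not tested.

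The 2 lectin chaperones were lower in RTOC by every probe and on both arrays, and both gave calls. They hold newly made glycoproteins of many kinds in the ER, class I heavy chains among them. For Calr (chr8:84842088-84846931) the brighter probe (A_51_P416419) read 13881 in 2D culture and 6433 in RTOC at E14.5, and 14892 and 7635 at E15.5. Its log2 ratios of -1.11 and -0.96 gave a mean of -1.04 ± 0.10 (SD, n = 2, SE 0.25), a fold of 2.05, and an adjusted p of 0.0329. The other Calr probe (A_52_P672212) read 2413 and 1080 at E14.5 and 2834 and 1493 at E15.5, and was called lower as well (-1.16 and -0.92, mean -1.04 ± 0.17, adjusted p = 0.0336). Canx (chr11:50293957-50325673) had 3 probes on the array, of which 1 was called. That probe (A_51_P242143) read 6382 and 2206 at E14.5 and 3147 and 1514 at E15.5. Its log2 ratios were -1.53 and -1.06, the only member probe changed at least 2-fold on both arrays, and its mean of -1.29 ± 0.34, a fold of 2.45, had an adjusted p of 0.0214. The brightest Canx probe (A_52_P337679) read 50481 and 27854 at E14.5 and 45270 and 33510 at E15.5 (log2 ratios -0.86 and -0.43, adjusted p = 0.122). The middle one (A_52_P496596) read 9103 and 4149 at E14.5 and 5888 and 4168 at E15.5 (-1.13 and -0.50, adjusted p = 0.0832). The 3 Canx probes thus had the same direction on both arrays, with mean log2 ratios from -0.65 to -1.29, and the call rests on 1 of them.

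**Figure D3:**
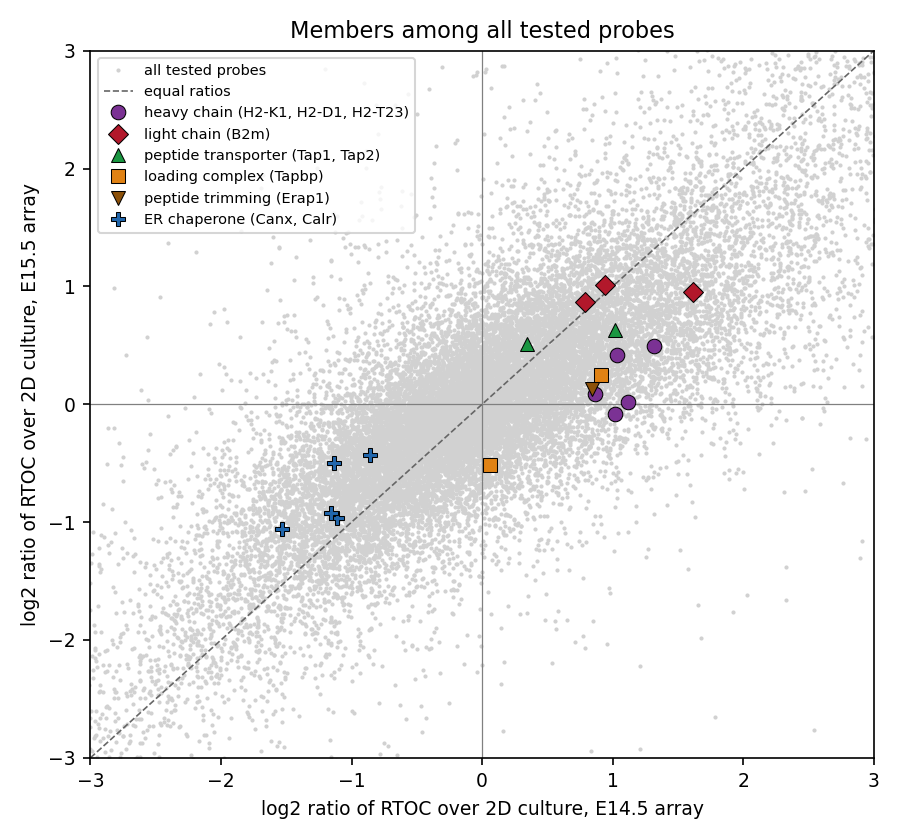
Log2 ratio of RTOC over 2D culture on the E14.5 array (x axis) against the E15.5 array (y axis) for the 23685 tested probes (grey, those within 3 of 0 drawn) and the 18 member probes, marked by role. The 5 heavy chain probes lie below the dashed line of equal ratios, between 0.87 and 1.31 on the x axis and -0.08 and 0.49 on the y axis.

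Promoter sequences are shown for 6 of the 7 members whose windows held the letters of a known regulatory element. Class I genes and B2m are textbook targets of NF-κB and of interferon response factors, and genes of ER chaperones of the unfolded protein response. RefSeq promoter windows of GRCm38.p6, from 250 bases before to 50 after the start, were found for 9 of the 10 members. Of 32851 such windows, 0.119% held the ER stress element letters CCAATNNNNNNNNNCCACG on either strand. Among the members these were Calr, from -162 to -144 on the opposite strand, and Canx, from -145 to -127. The bases before the start are given below in lower case, with the fixed letters of the match in capitals.
Calr promoter, chr8:84846932-84847181, minus strand: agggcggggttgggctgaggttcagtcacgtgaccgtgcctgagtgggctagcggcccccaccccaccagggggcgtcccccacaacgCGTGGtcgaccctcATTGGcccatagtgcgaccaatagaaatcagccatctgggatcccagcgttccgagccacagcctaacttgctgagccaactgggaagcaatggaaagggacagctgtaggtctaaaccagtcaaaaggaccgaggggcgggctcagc
Canx promoter, chr11:50325674-50325923, minus strand: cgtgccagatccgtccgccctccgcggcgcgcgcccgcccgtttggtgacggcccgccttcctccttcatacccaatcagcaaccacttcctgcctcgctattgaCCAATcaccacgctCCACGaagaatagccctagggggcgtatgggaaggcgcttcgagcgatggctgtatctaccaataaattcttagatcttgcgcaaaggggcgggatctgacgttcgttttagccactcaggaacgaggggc
The κB letters GGGATTCCC stood in 0.353% of all windows, and among the members in H2-D1, from -170 to -162, and in H2-K1, from -110 to -102. H2-K1 has 2 annotated starts and the first is shown.
H2-K1 promoter, chr17:34000348-34000597, minus strand: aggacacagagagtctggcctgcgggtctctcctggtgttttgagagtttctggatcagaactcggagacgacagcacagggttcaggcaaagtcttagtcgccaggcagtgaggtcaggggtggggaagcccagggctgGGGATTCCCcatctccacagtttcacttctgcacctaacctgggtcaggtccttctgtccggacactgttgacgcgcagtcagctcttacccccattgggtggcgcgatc
H2-D1 promoter, chr17:35262844-35263093, plus strand: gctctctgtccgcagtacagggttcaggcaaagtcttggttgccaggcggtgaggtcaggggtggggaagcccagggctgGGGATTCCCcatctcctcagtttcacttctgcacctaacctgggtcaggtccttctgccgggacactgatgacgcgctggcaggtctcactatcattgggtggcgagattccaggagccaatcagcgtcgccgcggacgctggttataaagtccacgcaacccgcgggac
The interferon element letters GAAANNGAAA stood in 3.44% of all windows. They were found in B2m from -139 to -130, in H2-T23 from -124 to -115 on the opposite strand, and in Erap1 from -4 to 6 on the opposite strand, across the start, so that its window is not printed.
B2m promoter, chr2:122147437-122147686, plus strand: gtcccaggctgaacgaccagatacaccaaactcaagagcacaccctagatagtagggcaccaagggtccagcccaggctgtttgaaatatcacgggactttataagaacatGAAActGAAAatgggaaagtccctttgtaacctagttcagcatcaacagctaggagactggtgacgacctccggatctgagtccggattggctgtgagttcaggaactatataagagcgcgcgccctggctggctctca
H2-T23 promoter, chr17:36032702-36032951, minus strand: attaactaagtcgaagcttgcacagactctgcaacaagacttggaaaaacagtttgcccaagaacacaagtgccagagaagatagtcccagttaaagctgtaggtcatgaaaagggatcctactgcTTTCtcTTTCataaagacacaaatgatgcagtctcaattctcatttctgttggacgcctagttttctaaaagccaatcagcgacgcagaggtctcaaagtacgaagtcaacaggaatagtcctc
The windows of Tap1 and Tapbp held none of the 3 letter sets as spelled here. A match is a description of the letters and was not tested as a binding site. The elements were picked because such genes are known targets, so matches among the members were likely in advance. The shares over all windows are background and no test of enrichment. Other spellings of the 3 elements were not searched in any window. The lack of a match in a member therefore does not show that the element is absent from it.

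**Figure D4:**
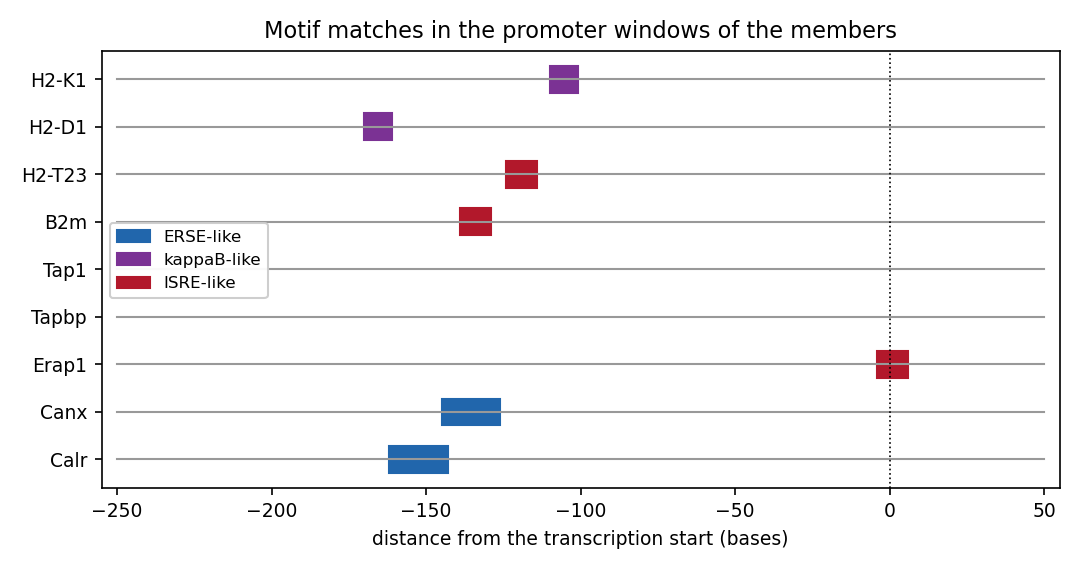
Positions of the matches in the promoter windows of the 9 members that had one, as distance in bases from the transcription start (dotted line), with each window drawn as a grey line over its whole length. ERSE-like matches are in the 2 chaperone genes, kappaB-like ones in H2-K1 and H2-D1, and ISRE-like ones in H2-T23, B2m and Erap1. Only the exact letters given in the text were searched.

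Other genes of the pathway were read by the brightest tested probe of each gene. By that reading 28.3% of 13506 genes were called, 2093 of them higher in RTOC and 12.8% of all lower, and of the 10 members B2m was called higher and Calr lower. The members were thus not called more often than genes over the whole array. Of 25 other class I and class I-like heavy chain genes, 18 were on the array and 14 were tested, of which 5 were called higher and 0 lower in limma (6 and 0 at an unadjusted p under 0.05), with a median log2 ratio of 0.78 against -0.01 for all tested probes. The 5 were Cd1d1, which presents lipids to NKT cells (mean log2 ratio 3.06 ± 1.26, adjusted p = 0.00792), Hfe, which takes part in iron sensing (1.74 ± 0.01), H2-M3, which presents formylated peptides (1.52 ± 0.20), H2-Q8 (1.25 ± 0.05) and the antibody receptor Fcgrt (1.24 ± 0.27). With normexp and loess the means of Hfe and H2-Q8 were 0.71 and 0.68. Cd1d1, Hfe and Fcgrt present no peptide. The lowest were H2-T22 (0.24), H2-T10 (0.18) and H2-Bl (0.07), none of them called. The 6 H2-Q genes tested, close relatives of the heavy chain members in sequence, shared the 2D difference of those members. Their log2 difference of E15.5 over E14.5 was 0.65 to 1.26 in 2D culture and 0.28 to 0.58 in RTOC. Since probes of such relatives can bind transcripts of one another, these may not be separate readings. The difference was not particular to the H2-Q genes. Over all 14 tested genes of the list it ran from -0.35 to 1.80 in 2D culture, with 11 above 0. Cd1d1 read 562 in 2D culture at E14.5 and 1845 at E15.5. H2-M3 went the other way, with 1021 and 802, as did H2-T10, with 8008 and 7020.

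The ER partners of class I assembly were mostly below 0, as Canx and Calr were. All 15 were tested, and 2 were called lower and 0 higher in limma (4 and 0 at an unadjusted p under 0.05). Over all 13506 genes read by the brightest probe, 12.8% were called lower, so the count of 2 was near that share. Of the 15, 12 lay below 0 on both arrays against 1 above 0 on both, with a median of -0.57. Among all tested probes 40.4% lay below 0 on both arrays. Called were Prkcsh, the glucosidase subunit that prepares glycans for the lectin chaperones (-1.11 ± 0.04, adjusted p = 0.0267), and Pdia3, the ERp57 of the loading complex that binds tapasin and calreticulin (-0.90 ± 0.16, adjusted p = 0.0493). Pdia3 read 45729 in 2D culture and 22664 in RTOC at E14.5, and 44281 and 25708 at E15.5, so both RTOC values lay below both 2D values. Hspa5, the ER Hsp70 BiP, had a mean of -0.90 ± 0.49 (adjusted p = 0.0682). The highest were the tapasin relative Tapbpl (0.24), the glucosyltransferase Uggt1 (0.19, with a dimmer probe at -1.17 called lower, adjusted p = 0.0259), the translocon subunit Sec61b (-0.15) and the endosomal aminopeptidase Lnpep (-0.19), none called by its brightest probe. With a gene counted by any of its probes, 7 of the 15 were called lower, against 17.3% of all genes read the same way, and genes with more probes have more chances of a call. Of 13 of these genes with a promoter window, Hspa5, Hsp90b1 and Pdia6 held the ER stress element letters. This too describes letters and is not a test.

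The genes that supply peptides in the cytosol gave ratios of widely different size. Of 11 tested genes, 3 were called higher and 1 lower, with a median of -0.22. Over all 13506 genes read by the brightest probe, 2093 were called higher and 12.8% lower, so the count of 1 lower was near that share. Psmb9, an immunoproteasome subunit, had a mean log2 ratio of 3.92 ± 0.27 (adjusted p = 0.00155), Psmb11, the thymoproteasome subunit β5t, 3.91 ± 0.21, and Psmb10 2.68 ± 0.19. Psmb8, another inducible subunit, was at 0.79 ± 0.30 and not called (adjusted p = 0.0758). Psmb9, which lies beside Tap1 in the MHC, read 1752 in 2D culture and 30320 in RTOC at E14.5, and 1872 and 24822 at E15.5. The lowest were Tpp2 (-0.49), Npepps (-0.63) and Thop1 (-1.10, called lower, adjusted p = 0.0320, or -0.53 with normexp and loess), peptidases that cut peptides in the cytosol.

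Regulators of class I transcription gave 6 genes called higher and 1 lower of 13 well above background in all channels, with a median of 0.61. Of all 13506 tested genes, 2093 were called higher and 12.8% lower, so the count of 1 lower was not above that share. These shares also cover genes dim in some channels. Among the higher ones were the interferon-induced activator Irf1 (2.02 ± 0.42, adjusted p = 0.00650), the NF-κB subunit Nfkb1 (1.92 ± 0.38) and Rfxank (1.28 ± 0.66, or 0.60 with normexp and loess), and also Rfxap. A dimmer Irf1 probe had a mean of 0.84 and was not called. The probes of Creb1 disagreed, with the brightest called higher (1.12, adjusted p = 0.0296), another called lower (-1.11, adjusted p = 0.0274) and the last at -0.58. Rela, another NF-κB subunit, was called lower (-0.91 ± 0.13, adjusted p = 0.0473). Stat2 (-0.66) and Irf9 (-0.09) were not called by their brightest probe, and a dimmer Irf9 probe, not well above background in RTOC on either array, was at least 1.17-fold lower. The interferon response list split. Of its 20 genes 18 were well above background in all channels, and of these 6 were called higher and 4 lower, with a median of 0.67. Over all tested genes the counterparts were 2093 of 13506 and 12.8%. Cxcl10 (2.57 ± 1.56) and the GTPase Iigp1 (2.54 ± 0.85) were among the higher ones. Cxcl9 was at least 1.35-fold and Mx1 at least 1.13-fold higher, as neither array had their 2D signal well above background, and both are left out of these counts. Such a bound sets the RTOC mean against the higher of the probe's own 2D signal and the lowest signal well above background on the array. Irf7 (-1.07 ± 0.06, or -0.49 with normexp and loess), Bst2 (-1.40 ± 0.14) and Usp18 (-1.45 ± 0.22) were called lower.

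**Figure D5:**
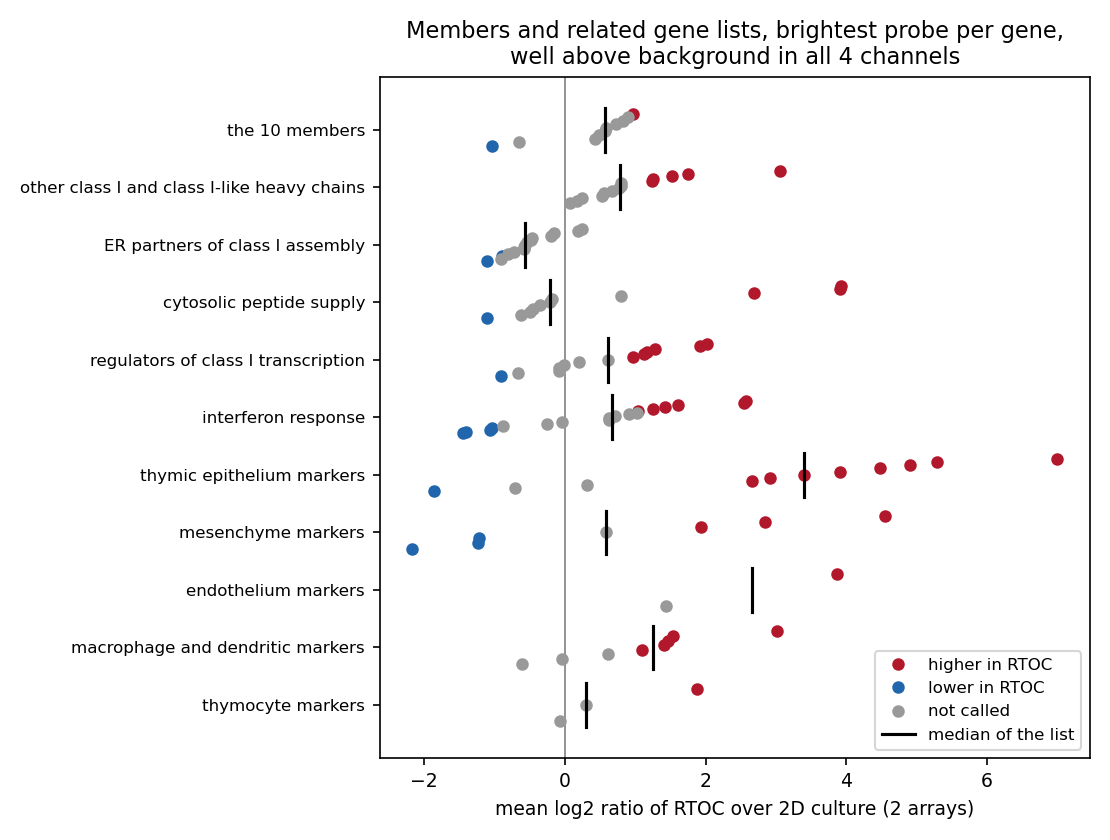
Mean log2 ratio of RTOC over 2D culture (2 arrays) for the 10 members and for each gene of the related lists, read by the brightest tested probe, with red for genes called higher in RTOC, blue for genes called lower, grey for those not called, and a black bar at the median. Genes not well above background in all 4 channels are left out. The ER partners lie mostly left of 0 and the other heavy chains right of it.

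Markers of the cell types in these cultures moved with the comparison. For the marker counts here and below, the share over all 13506 tested genes was 28.3% called in either direction and 12.8% lower. The labelled stromal cells were visible by their markers, as all 11 epithelial and all 7 mesenchymal ones were well above background in all channels. Of 11 thymic epithelial markers 8 were called higher in RTOC and 1 lower, and their summed intensity went from 181051 to 891566 at E14.5 and from 446854 to 887744 at E15.5. Highest were the chemokine Ccl25 (log2 ratios 7.34 and 6.66), the serine protease Prss16 (mean log2 ratio 5.29), Enpep (4.90) and Ly75 (4.47). Dimmer Ccl25 probes had smaller means of 4.34, called higher, and 0.78, not called. Lowest were Krt8 (0.32) and Epcam (-0.71), not called, and Krt14 (-1.86), called lower. The keratin Krt8 read 132043 in 2D culture and 274775 in RTOC at E14.5, and 392579 and 293955 at E15.5, and it made up 72.9% of the 2D sum at E14.5 and 87.9% at E15.5, so the sums mostly follow this bright probe there. In 2D culture the log2 difference of E15.5 over E14.5 had a median of 0.29 over the 11 markers, with Krt8 highest at 1.57. Of 7 mesenchymal markers 3 were called higher, Lum (4.55), Pdgfra (2.84, or 1.82 with normexp and loess) and Dcn (1.94), and 3 lower, Pdgfrb (-1.22), Col1a2 (-1.23) and Col1a1 (-2.17). Col3a1 (0.58) was not called, and the summed intensity went from 432129 to 271796 and from 327112 to 290302. Col1a1 made up 45.9% of this 2D sum at E14.5 and 54.6% at E15.5. The sums here and below add probes that differ in how brightly they bind, so they lean on the brightest ones and do not measure a list evenly.

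Blood-derived and vascular cells, which also carry class I molecules, had markers that were called higher in RTOC too. Of 8 macrophage and dendritic markers 5 were called higher, with Adgre1 at 3.01, Tyrobp at 1.54, Lyz2 at 1.46 and Fcer1g at 1.41. Their sum, of which Lyz2 made up 69.0% to 79.9%, went from 72787 to 181008 at E14.5 and from 61493 to 231990 at E15.5. Cd68 (0.61), Itgax (-0.04) and Itgam (-0.61) were not called. Of 6 endothelial markers 2 were well above background in all channels, of which Emcn was called higher (mean log2 ratio 3.87, or 2.53 with normexp and loess) and Kdr (1.43) was not. The other 4 passed the filter through RTOC alone, which fixes their direction. The sum over the 6 went from 1486 to 6452 and from 572 to 9996. It includes these 4, so part of its rise was fixed by the filter and it is no separate evidence. Cdh5 was at least 5.01-fold, Pecam1 at least 1.42-fold, Tie1 at least 1.12-fold and Tek at least 1.104-fold higher. Of 10 thymocyte markers 6 were tested and 3 of these were well above background in all channels. Ptprc (1.88), the CD45 gene and not particular to thymocytes, was called higher, while Lck (0.30) and Cd3e (-0.08) were not. Cd3d, dim in 2D culture on both arrays, was at least 1.31-fold higher by its bound. Cd3g was dim in 2D culture at E15.5, and its E14.5 log2 ratio was 4.10. The sum over the 6 went from 1445 to 5699 and from 1665 to 3482, and Ptprc made up 42.6% to 70.7% of it. This sum also includes markers dim in 2D culture, so part of its rise was fixed by the filter. The defining markers Cd4, Cd8a, Rag1 and Rag2 were too dim to be tested. The part of these cell types in the ratios of B2m, the heavy chains and the chaperones was not tested.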

How the data were processed

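The data were 2 two-colour Agilent arrays of the 4x44K mouse design, with total RNA of 2D culture in Cy3 and RTOC in Cy5. The labels name TRIzol for the RNA and the methods a column kit. Per the labels, the scans were read with Feature Extraction 11.5.1.1, while the file header names 9.1.3.1. The deposited files hold, per spot, mean and background signals and processed signals as intensity, the latter background-subtracted and dye-normalized within each array by the authors' software. The deposited series table holds the log10 ratio of the processed signals (largest difference 5e-10). The methods name quantile normalization in GeneSpring GX and no test for the arrays.

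From the processed intensities, outlier spots (5 at E14.5, 1 at E15.5) were dropped, quantile normalization was run over the 4 channels, and the log2 ratio (RTOC over 2D culture) was averaged over a probe's spots. An accession gave the gene of 22951 of 41174 probes, a symbol that of 6659 and an older symbol that of 3109, while 8455 kept the name in the file. Probes with at least 1 channel well above background on each array were tested (23685) with limma 3.58.1 in R 4.3.3 (intercept only, eBayes, two-sided) and Benjamini-Hochberg adjustment over all tested probes at 0.05. There was 1 residual degree of freedom, so p-values lean on the prior spread over all probes. The steps were tested on simulated data. The small number of arrays limits the precision. On the E14.5 array 53.1% of probes in 2D culture and 56.3% in RTOC were well above background, and on the E15.5 array 53.5% and 60.9%. Alternatives were normexp (offset 50) with loess, median centring, the log ratio as deposited, outlier spots kept, other filters on dim probes, another eBayes fit, the methods' t-test, each array left out, and channels as separate samples. Pairing here means that both channels of an array share that array: the main test uses the ratio within it.

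All 10 members are described by every probe. From each gene list, by the brightest tested probe, up to 4 genes with the highest and 3 with the lowest mean log2 ratio are named. Fcgrt, Creb1 and Rfxap, beyond that rule, were named after their values were seen. A gene that the rule would name is not reported here. The members and lists were chosen with earlier results of these data known.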

Additional observations from a re-analysis of the deposited data

Results flagged for a closer look

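The third H2-K1 probe (A_52_P50496) and the variant 2 Tapbp probe (A_52_P684830) had log2 ratios of opposite sign at the 2 stages. For H2-K1 the ratio was 1.02 at E14.5 and -0.08 at E15.5, a difference of 1.102. For Tapbp it was 0.06 at E14.5 and -0.51 at E15.5, a difference of 0.572. With median centring both H2-K1 ratios were above 0 (1.08 and 0.15), and the Tapbp ratios kept opposite signs (0.11 and -0.28). With 1 array per stage the difference was not tested. The other 2 H2-K1 probes and the other Tapbp probe were above 0 at both stages.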

How the results depend on the processing

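Of the 18 tested probes, 2 were called higher and 3 lower. Normexp with loess, the log ratio as deposited and outlier spots kept gave counts within 1.5 times of these. With normexp and loess the higher calls were not the same probes, since the third B2m probe lost its call and the second gained one. Higher calls numbered 5 with median centring, 4 with all 4 channels well above background, 1 with no replicate block (channels as separate samples), and 0 with no filter on dim probes, with eBayes trend and robust, and with the methods' t-test. Lower calls numbered 0 with no filter, with no replicate block and with the t-test. In limma without the filter 0 of 41168 probes were called, and 7 member probes and 10660 of all probes had an unadjusted p under 0.05. The t-test called 4 of 23685 probes, with 3 such members and 3541 such probes in all. Trend and robust fitting had 10 such members and 10600 such probes in all. Median centring put the median of all tested probes at 0.15 and called 5073 of 7794 higher, against 3626 of 6855 in quantile normalization. No member mean changed sign in any of these. Adjusted p ranged over the alternatives from 0.0236 to 0.117 for the brightest B2m probe, from 0.0214 to 0.118 for the brighter Calr probe from 0.0127 to 0.141 for the called Canx probe, and from 0.00698 to 0.172 for the third B2m probe.

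Counts of lists moved as follows. With normexp and loess, lower calls were 0 for cytosolic peptide supply and 1 for mesenchyme, and higher calls among all tested genes were 3 for the interferon response, 2 for endothelium and 1 for thymocytes, against 8, 5 and 3 in quantile normalization with the genes dim in 2D culture counted. With any probe of a gene, lower calls were 7 for ER partners and 3 for regulators. The cause was not tested. With an array left out, the remaining log2 ratio is the value and there is no test, so it ranges over the values given per array.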
